A study of Mus musculus with 10 samples.

Results

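Transcripts of the pyruvate dehydrogenase complex and of the enzymes that switch it on and off were examined in mouse hearts that overexpress SPOP. The group holds 10 genes of the 24888 in the deposited table, taken by gene symbol: the subunit genes Pdha1, Pdhb, Dlat and Pdhx, the kinase genes Pdk1, Pdk2, Pdk3 and Pdk4, and the phosphatase genes Pdp1 and Pdp2. The set was selected on measured values of these libraries: it was put together once the scaled reads of Pdk4 and Pdk2 were known to be low in SPOP_CKI. Their differences between these groups are therefore given as a description, without p-values, and nothing is inferred from how many of them differ.

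RNA sequencing of poly(A) RNA was performed on heart tissue of mice with Cre-dependent overexpression of SPOP (SPOP_CKI, genotype label CKI, 5 libraries) and of mice titled WT with the genotype label Myh6Cre (Cre_control, 5 libraries). Cre is driven in both groups by the promoter of Myh6 (alpha-myosin heavy chain), a gene of cardiomyocytes, so the controls are Cre carriers. All mice are described as male, 8 to 10 weeks old and under sham conditions. SPOP brings substrates to a cullin-based ubiquitin ligase, and the series title places the work in pathological cardiac hypertrophy and heart failure.

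Pyruvate dehydrogenase converts pyruvate, the end product of glycolysis, into acetyl-CoA inside mitochondria and thereby commits carbohydrate carbon to oxidation. It is built of E1 (alpha and beta subunits), the E2 acetyltransferase core, the E3 dehydrogenase and a binding protein that tethers E3. The kinases phosphorylate E1 alpha and switch the complex off, and the phosphatases remove the phosphate and switch it on. In the heart, Pdk4 is known to be abundant when fatty acids are the main fuel, and to be driven by PPAR, forkhead and glucocorticoid receptor factors.

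The libraries held 15316293 to 17114869 reads in genes, which the authors had divided by size factors (scaled reads below). The labels do not state that the libraries come from separate animals or litters, so adjusted p-values cover the spread of these libraries only. Spop itself had 25308 to 40631 scaled reads in SPOP_CKI, against 3078 to 3726 in Cre_control, a 9.20-fold difference without overlap. Across all 14212 genes tested, 1421 were higher and 1747 lower in SPOP_CKI (limma, adjusted p under 0.05). In 3 libraries the reads went against the male label: SPOP_CKI 1, SPOP_CKI 3 and Cre_control 5 had 6491, 6578 and 4491 scaled reads of Xist and 0 of the Y-linked gene Ddx3y, while the other 7 had at most 5.31 of Xist and at least 1173 of Ddx3y. Pdha1 and Pdk3 are X-linked, and values without these 3 libraries are given beside the results. Library SPOP_CKI 3 also stood apart, with a mean correlation of 0.814 to its group against 0.892 to 0.908 for the other SPOP_CKI libraries and 0.964 to 0.974 for the controls.

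All 10 genes passed the filter on low values. Of them, 1 was past the threshold of the fit across all genes in the higher direction (Pdk3) and 4 in the lower direction (Pdk4, Pdk2, Pdp2 and Pdha1), where 10.0% and 12.3% of all tested genes were. For 4 genes no SPOP_CKI library overlapped the controls, as for 21.3% of all tested genes: Pdk3 was above them (9.01% of all tested genes) and Pdk4, Pdk2 and Pdha1 below (12.3%). The median log2 fold change of the 10 genes was −0.50, beside −0.11 for all tested genes. That overall median was 0.02 with edgeR and 0.03 after quantile normalization. Pdk3 alone was higher and Pdk4 and Pdk2 were lower past the threshold under each of the 22 alternatives. The alternatives re-use the libraries in which Pdk4 and Pdk2 were picked as low. They show dependence on processing and are no independent support.

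**Figure D1:**
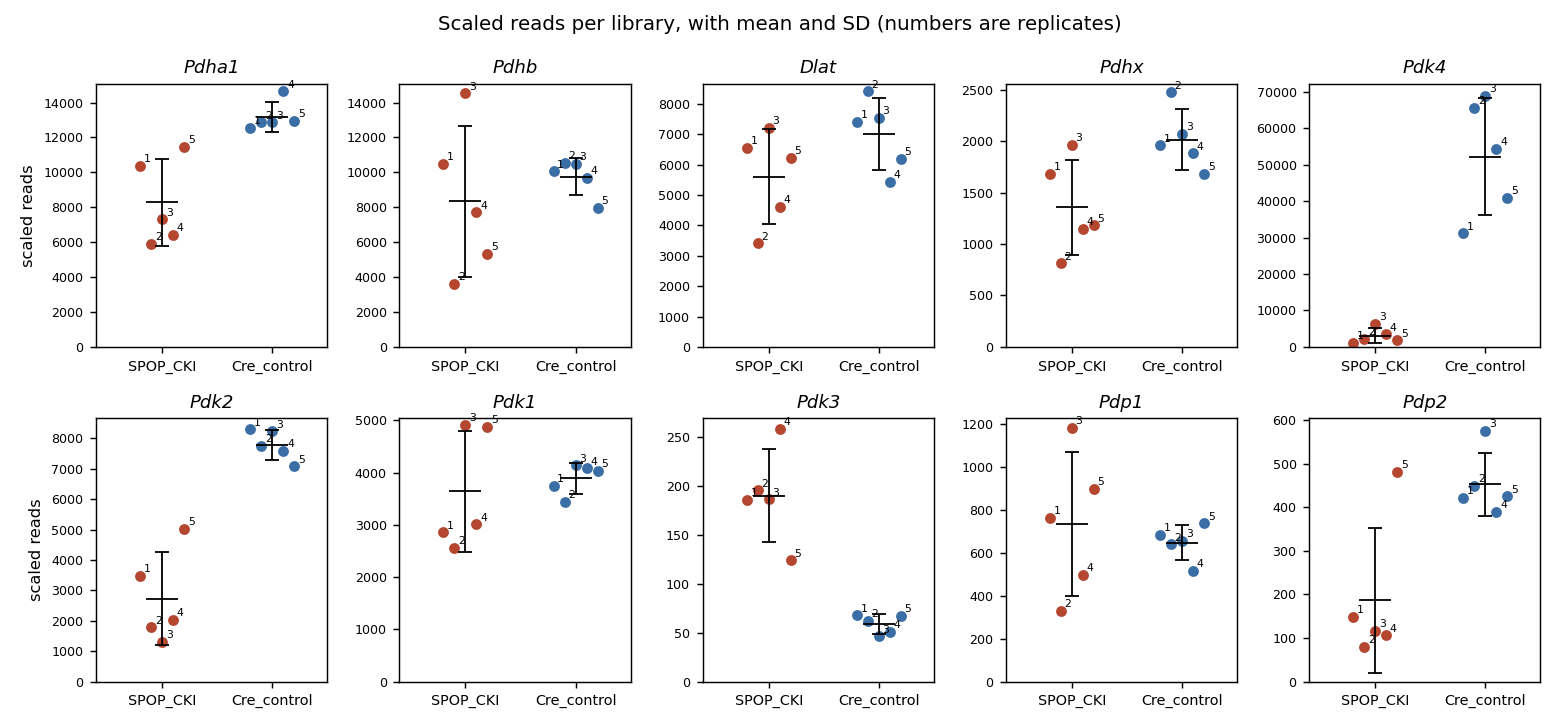
Scaled reads (y axis, linear from 0) of each of the 10 genes in the 5 SPOP_CKI libraries (red) and the 5 Cre_control libraries (blue), with the mean and SD as black bars and the replicate number beside each point. Pdk4 spans 1166 to 6409 in SPOP_CKI and 31173 to 68834 in Cre_control, Pdk3 is higher in all SPOP_CKI libraries, and SPOP_CKI 5 stands away from the other SPOP_CKI libraries for Pdp2.

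Pdk4 (ENSMUSG00000019577, mm10 chromosome 6, 5483351 to 5496309, minus strand) encodes the kinase isoform best known as a switch toward fatty acid use. Its scaled reads were 1166, 2306, 6409, 3430.1 and 1843 in SPOP_CKI libraries 1 to 5, against 31173, 65536, 68834, 54266 and 40826 in Cre_control libraries 1 to 5. Each SPOP_CKI library was below each control, SPOP_CKI 1 was the lowest and SPOP_CKI 3 the highest of its group, and Cre_control 1 was the lowest control. The means were 3031 ± 2060.5 in SPOP_CKI and 52127 ± 16049 in Cre_control (SD, n = 5 each), a log2 fold change of −4.29 (SE 0.41), or 19.5-fold lower on the log2(value + 1) scale. Over the 22 alternatives it was −4.62 to −4.01, and leaving out the 3 libraries with Xist reads gave −4.43.

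Pdk2 (ENSMUSG00000038967, chromosome 11, 95026258 to 95041354, minus strand) encodes the broadly expressed kinase isoform. It stood at 3488, 1790.05, 1317, 2027 and 5029 scaled reads in SPOP_CKI libraries 1 to 5, against 8299.8, 7750.2, 8225, 7581 and 7081 in the controls. No SPOP_CKI library reached the lowest control. SPOP_CKI 5 came nearest, and SPOP_CKI 3, which had the most Pdk4 in its group, had the least Pdk2. The means were 2730.2 ± 1519.5 in SPOP_CKI and 7787 ± 499 in Cre_control (SD, n = 5 each), a log2 fold change of −1.68 (SE 0.31), or 3.21-fold lower. It was −1.15 after each library was centred by transcript GC content and −1.60 without the libraries with Xist reads. Pdk2 lies 372725 bases from Spop on the same chromosome. Of the 4 tested genes between them, 0 passed the threshold in either direction. Whether position plays a part in the Pdk2 values was not tested.

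Pdk3 (ENSMUSG00000035232, chromosome X, 93764607 to 93832201, minus strand), the kinase gene with the fewest reads here, went the other way. It had 186, 196, 187, 259 and 124 scaled reads in SPOP_CKI libraries 1 to 5, against 67.9, 62.2, 46.5, 50.9 and 67.5 in the controls. The groups did not overlap, with SPOP_CKI 5 the lowest and SPOP_CKI 4 the highest of its group. Means were 190.2 ± 47.8 in SPOP_CKI and 59.0 ± 9.80 in Cre_control (SD, n = 5 each), a log2 fold change of 1.65 (SE 0.24), or 3.14-fold higher. Of the SPOP_CKI libraries, those with Xist reads (186 and 187) lay within the range of the others (124 to 259), and without the 3 such libraries the log2 fold change was 1.70.

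Pdk1 (ENSMUSG00000006494, chromosome 2, 71873224 to 71903858, plus strand), known as a target of hypoxia-inducible factor, overlapped between groups. Scaled reads were 2856, 2559.9, 4915, 3009 and 4880.5 in SPOP_CKI libraries 1 to 5, against 3746, 3439.5, 4136, 4084 and 4029 in the controls. SPOP_CKI 3 and 5 were above all controls and the other 3 below all controls, and the means of 3644 ± 1156 in SPOP_CKI and 3887 ± 292 in Cre_control (SD, n = 5 each) lay between these libraries. Its log2 fold change was −0.15 (SE 0.21) and did not pass the threshold, nor did it without the libraries with Xist reads (−0.20).

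**Figure D2:**
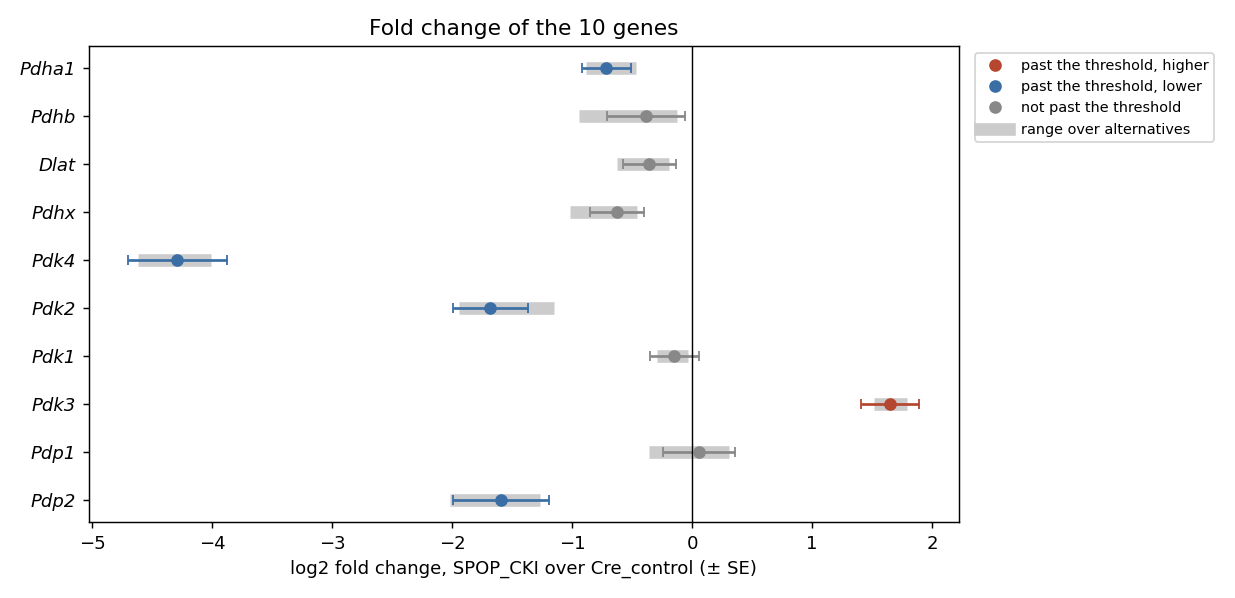
Log2 fold change of SPOP_CKI over Cre_control on the log2(value + 1) scale (x axis) with its SE for each of the 10 genes, coloured by whether it passed the threshold of the fit across all genes. Grey bars span the 22 alternatives: Pdk4 stays between −4.62 and −4.01 and Pdk3 between 1.51 and 1.79, while the bar of Pdp1 crosses 0.

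The regions in front of the 3 kinase genes past the threshold are shown as the 250 bases upstream of a start given by RefSeq. They are printed 5′ to 3′ on the gene's strand (build GRCm38.p6, the assembly of mm10). The windows are chr6:5496279-5496528 for Pdk4, chr11:95041372-95041621 for Pdk2 and chrX:93832151-93832400 for Pdk3, all on the minus strand. Capitals mark matches on either strand to the CCAAT box (CCAAT or ATTGG), the hypoxia response core (ACGTG or CACGT) and the GC box (GGGCGG or CCGCCC).
Pdk4: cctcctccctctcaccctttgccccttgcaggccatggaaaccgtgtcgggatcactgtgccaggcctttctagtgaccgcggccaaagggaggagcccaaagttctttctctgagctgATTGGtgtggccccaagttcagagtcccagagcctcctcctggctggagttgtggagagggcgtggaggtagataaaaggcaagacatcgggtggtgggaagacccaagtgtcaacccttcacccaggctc
Pdk2: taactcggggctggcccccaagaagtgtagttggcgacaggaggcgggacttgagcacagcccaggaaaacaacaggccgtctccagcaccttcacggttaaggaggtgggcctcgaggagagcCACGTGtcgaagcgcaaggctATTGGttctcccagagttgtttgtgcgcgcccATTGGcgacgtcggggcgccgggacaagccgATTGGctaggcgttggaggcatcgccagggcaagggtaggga
Pdk3: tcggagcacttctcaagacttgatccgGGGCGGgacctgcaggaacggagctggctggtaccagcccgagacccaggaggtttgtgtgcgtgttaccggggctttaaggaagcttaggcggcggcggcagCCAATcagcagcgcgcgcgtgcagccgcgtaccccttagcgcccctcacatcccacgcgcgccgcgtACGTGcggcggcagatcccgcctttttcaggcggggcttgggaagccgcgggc
In these windows Pdk4 had a single CCAAT box starting 131 bases before the start. Pdk2 had 3 of them and a palindromic CACGTG, which counts on both strands as 2 overlapping hypoxia cores and is also the E-box that basic helix-loop-helix factors recognise. The window of another RefSeq start of Pdk2 (chr11:95040876-95041125, not printed) had 0 CCAAT boxes, hypoxia cores or GC boxes. Pdk3 had a single CCAAT box, GC box and hypoxia core. The nuclear receptor half-site AGGTCA and the forkhead site GTAAACA, searched on both strands, were in 0 of the 11 upstream windows matched for 9 of the 10 genes. Of all 32851 windows of this length, 14.0% held AGGTCA, 3.17% GTAAACA, 16.6% ACGTG, 32.7% GGGCGG and 33.8% CCAAT. These are matches of letters in a short window and no measure of binding.

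Per kilobase of the deposited gene length, the kinase transcripts were made up differently in the 2 groups. The sum and all shares move with Pdk4, on which the set was selected together with Pdk2, so they are no separate results. Pdk1 itself was at 468 ± 149 reads per kilobase in SPOP_CKI and 499.6 ± 37.5 in Cre_control. Summed over the 4 genes, reads per kilobase were 2269 ± 575 in SPOP_CKI and 17831 ± 4589 in Cre_control (SD, n = 5 each), with no overlap. Pdk4 made up 37.0% ± 18.9 of that sum in SPOP_CKI and 82.3% ± 5.20 in Cre_control, with single libraries at 17.7% to 62.0% in SPOP_CKI and 73.9% to 86.5% in Cre_control. Pdk1 made up 20.4% ± 1.60 in SPOP_CKI and 2.97% ± 0.827 in Cre_control, and Pdk3 made up 3.52% ± 1.36 in SPOP_CKI and 0.141% ± 0.0587 in Cre_control. Pdk2 was at 39.0% ± 18.9 in SPOP_CKI and 14.6% ± 4.37 in Cre_control, where SPOP_CKI 3 with 14.1% lay inside the control range of 11.4% to 21.8%.

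**Figure D3:**
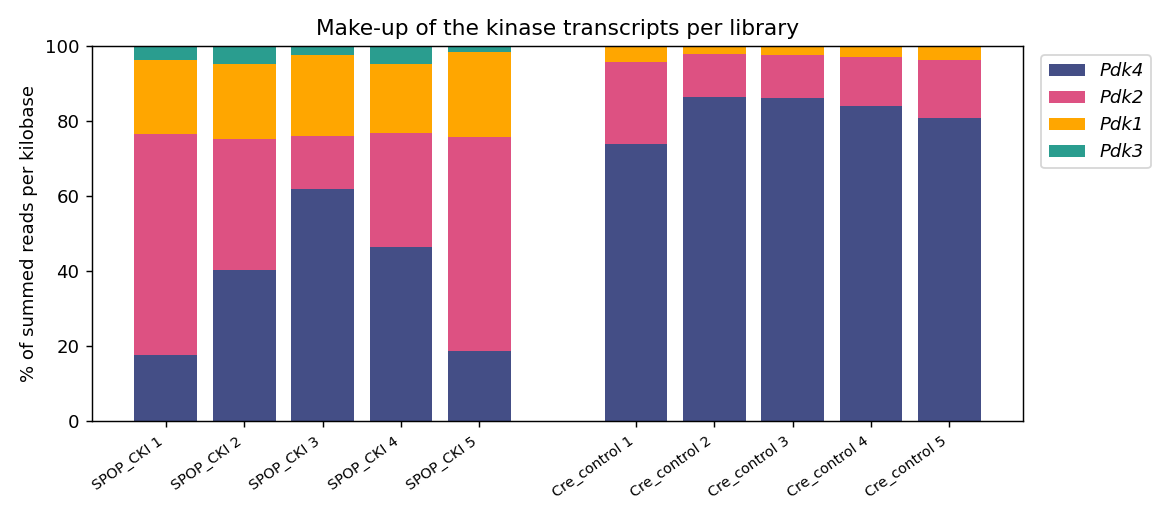
Share of each kinase gene in the summed reads per kilobase of Pdk1 to Pdk4 (y axis, percent) in each SPOP_CKI library (left) and each Cre_control library (right). Pdk4 takes 17.7% to 62.0% in SPOP_CKI and 73.9% to 86.5% in Cre_control, and Pdk1 is close to 20% in each SPOP_CKI library, from 18.4% to 22.5%.

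By level per kilobase, the order in SPOP_CKI was Pdk4 (863 ± 587) and Pdk2 (863 ± 480), then Pdk1 (468 ± 149) and Pdk3 (74.3 ± 18.7). Pdk4 and Pdk2 did not differ beyond their spread there, and the library ranges of Pdk1 (329 to 632) overlapped both. In Cre_control the order was Pdk4 (14847 ± 4571), Pdk2 (2462 ± 158), Pdk1 (499.6 ± 37.5) and Pdk3 (23.0 ± 3.83), with no overlap between neighbours. Without Pdk4, the other 3 kinase genes summed to 1406 ± 526 reads per kilobase in SPOP_CKI and 2985 ± 155 in Cre_control (SD, n = 5 each).

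Pdha1 (ENSMUSG00000031299, chromosome X, 160122209 to 160138413, minus strand) encodes E1 alpha, the subunit that carries the phosphorylation sites. It stood at 10385, 5890.6, 7305, 6416 and 11464 scaled reads in SPOP_CKI libraries 1 to 5, against 12555, 12862, 12863, 14642 and 12942 in the controls. All 5 SPOP_CKI libraries were below all controls, SPOP_CKI 1 and 5 by the least. The means were 8292 ± 2485 in SPOP_CKI and 13173 ± 834 in Cre_control (SD, n = 5 each), a log2 fold change of −0.72 (SE 0.20), or 1.64-fold lower. Without the libraries with Xist reads it was −0.80 and still past the threshold. The call was lost in 8 of 22 alternatives: after quantile normalization (−0.46), on leaving out any single control library (−0.73 to −0.68), and without SPOP_CKI 2 (−0.61) or SPOP_CKI 4 (−0.64). Its exons share 603 bases with Map3k15 on the opposite strand, which averaged 23.1 scaled reads over the 10 libraries.

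Pdhb (ENSMUSG00000021748, chromosome 14, 8165996 to 8173025), which encodes E1 beta, was the most variable subunit in SPOP_CKI. It had 10504, 3626, 14539, 7722 and 5353 scaled reads in SPOP_CKI libraries 1 to 5, against 10069.7, 10559.9, 10508, 9686 and 7968 in the controls. SPOP_CKI 3 was above all controls and SPOP_CKI 2, 4 and 5 below all of them. The means were 8349 ± 4319 in SPOP_CKI and 9758 ± 1062 in Cre_control (SD, n = 5 each), and the log2 fold change of −0.38 (SE 0.32) did not pass. It was −0.94 and past the threshold without the libraries with Xist reads. The ratio of Pdha1 to Pdhb per kilobase was between 0.520 in SPOP_CKI 3 and 2.21 in SPOP_CKI 5, against 1.26 to 1.68 in Cre_control.

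Dlat (ENSMUSG00000000168, chromosome 9, 50634633 to 50659780) encodes the E2 core. Its scaled reads were 6560.0, 3412, 7210.3, 4617 and 6231 in SPOP_CKI libraries 1 to 5, against 7423, 8421, 7548, 5445 and 6197 in the controls. SPOP_CKI 2 and 4 were below all controls and the other 3 within their range. The log2 fold change was −0.36 (SE 0.22), not past the threshold, except with array weights, where it was −0.58. Without the libraries with Xist reads it was −0.63 and did not pass.

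Pdhx (ENSMUSG00000010914, chromosome 2, 103021075 to 103073513) encodes the binding protein that tethers E3. It had 1681, 812, 1965, 1146 and 1181 scaled reads in SPOP_CKI libraries 1 to 5, against 1959, 2476, 2070.2, 1883 and 1684 in the controls. Only SPOP_CKI 3 was inside the control range, and the other 4 were below it. The log2 fold change of −0.63 (SE 0.23) did not pass. It passed without SPOP_CKI 3 (−0.78), without the libraries with Xist reads (−1.01), with array weights (−0.81) and after GC centring (−0.78).

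Dld, the E3 subunit shared with other dehydrogenase complexes and not among the 10 genes, averaged 7206 ± 3312 in SPOP_CKI and 7893 ± 984 in Cre_control (SD, n = 5 each, limma adjusted p = 0.554). It too was highest in SPOP_CKI 3, at 12201, and lowest in SPOP_CKI 2, at 3533. Without the libraries with Xist reads its log2 fold change of −0.24 moved to −0.69 and passed (adjusted p = 0.0487 with limma, range over the alternatives in log2 fold change −0.69 to −0.02).

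Pdp2 (ENSMUSG00000048371, chromosome 8, 104591451 to 104599026) encodes a catalytic subunit of the phosphatase. Scaled reads were 148, 80.1, 116, 106 and 481 in SPOP_CKI libraries 1 to 5, against 421, 449.5, 576, 389 and 425 in the controls. SPOP_CKI 5 lay within the control range, and the other 4 were all below it. The means were 186 ± 166 in SPOP_CKI and 452 ± 72.4 in Cre_control (SD, n = 5 each), a log2 fold change of −1.59 (SE 0.40), or 3.01-fold lower. Without SPOP_CKI 5 it was −2.01. The call was lost with edgeR (−1.27) and without the libraries with Xist reads (−1.50).

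Pdp1 (ENSMUSG00000049225, chromosome 4, 11958184 to 11966452), the other catalytic subunit gene, had 765, 331, 1186, 499 and 899 scaled reads in SPOP_CKI libraries 1 to 5, against 685, 640.5, 656, 518 and 739.5 in the controls. SPOP_CKI 1, 3 and 5 were above all controls and SPOP_CKI 2 and 4 below all of them. Its log2 fold change of 0.06 (SE 0.30) did not pass and took the other sign in 6 of 22 alternatives, among them that without the libraries with Xist reads (−0.23). Per kilobase, Pdp1 made up 83.8% ± 8.31 of the summed phosphatase reads in SPOP_CKI and 64.4% ± 3.83 in Cre_control (SD, n = 5 each). The groups did not overlap but came close, with 70.3% in SPOP_CKI 5 and 68.7% in Cre_control 5. This share also moves with Pdp2, so it is no separate result for Pdp1.

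Pdpr, the regulatory subunit of the phosphatase and outside the 10 genes, averaged 830.5 ± 407 in SPOP_CKI and 1403 ± 238 in Cre_control (SD, n = 5 each). It passed the threshold with a log2 fold change of −0.85 (SE 0.26, limma adjusted p = 0.0362), and the call was lost in 10 of 22 alternatives: with edgeR (−0.74), without the libraries with Xist reads (−0.68), on leaving out any single control library (−0.91 to −0.77), and without SPOP_CKI 1 (−0.82), SPOP_CKI 2 (−0.72) or SPOP_CKI 4 (−0.81). SPOP_CKI 5, at 1547, was inside the control range of 1169 to 1698, and the other SPOP_CKI libraries were at 539 to 719. Summed kinase reads per kilobase were 12.9 ± 4.20 times the summed Pdp1 and Pdp2 reads in SPOP_CKI and 80.7 ± 22.2 times in Cre_control (SD, n = 5 each), with single libraries at 9.57 to 18.6 in SPOP_CKI and 53.1 to 100.3 in Cre_control. This ratio also moves with Pdk4, on which the set was selected.

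**Figure D4:**
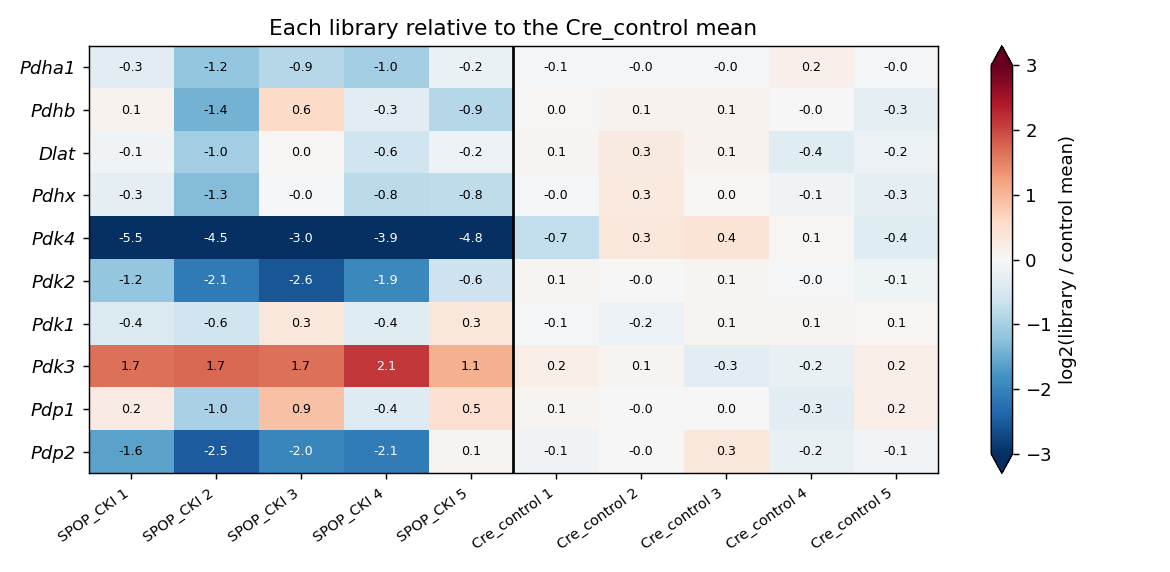
Log2 of each library's scaled reads over the Cre_control mean (colour and number), for the 10 genes (rows) in the SPOP_CKI libraries (left of the line) and the Cre_control libraries (right). Pdk4 is dark blue in all 5 SPOP_CKI libraries and Pdk3 red in all 5, whereas the subunit rows are lowest in SPOP_CKI 2.

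The SPOP_CKI libraries were spread more widely than the controls. The coefficient of variation was larger in SPOP_CKI than in Cre_control for all 10 genes, as it was for 86.4% of all tested genes. SPOP_CKI 2 was the lowest of its group for 7 genes, among them all 4 subunit genes. SPOP_CKI 3 was the highest for 6 (Pdk1, Pdk4, Pdp1, Pdhb, Dlat and Pdhx) and the lowest for Pdk2. SPOP_CKI 5 was the highest for Pdk2, Pdp2 and Pdha1 and the lowest for Pdk3. In the control group no library was extreme for more than 3 genes in either direction.

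Some markers of the cells in the tissue differed as well, and in bulk tissue fewer cells of a type and less RNA per cell cannot be told apart. The counts below stand beside 10.0% of all tested genes higher and 12.3% lower. Of 12 ventricular cardiomyocyte markers, 3 were lower and 1 higher, and their summed scaled reads were 396409 to 734418 in SPOP_CKI and 665158 to 860797 in Cre_control. Endothelial markers were lower in 5 of 8 (17684 to 29042 in SPOP_CKI, 43133 to 59158 in Cre_control). Erythroid markers were lower in 4 of 5 tested. Fibroblast markers were higher in 1 of 10, no more than the share over all tested genes. Their sum was 59273 to 148768 in SPOP_CKI and 59979 to 76103 in Cre_control. Macrophage markers were higher in 2 and lower in 1 of 9, and their sum was 6201 to 27336 in SPOP_CKI and 6513 to 10990.1 in Cre_control. SPOP_CKI 2 and SPOP_CKI 4 had the highest sums of both lists, 102998 and 148768 for fibroblast and 20289 and 27336 for macrophage markers. The same libraries were the lowest of SPOP_CKI for Pdha1, Dlat, Pdhx, Pdp1 and Pdp2. Of 3 tested atrial markers, 1 was higher (Nppa) and 1 lower (Stard10), and atrial Myl7 was at 0 to 292 in SPOP_CKI and 4.29 to 1108 in Cre_control. Of the 3 tested skeletal muscle markers 1 was lower (Ckm, which the heart also expresses), and neither of 2 tested adipocyte markers passed. The adipocyte gene Adipoq was at most 18.1 scaled reads in SPOP_CKI and 26.5 in Cre_control. Cidea of the same list was at 232 to 436 in SPOP_CKI and 312 to 615 in Cre_control. The fast skeletal muscle gene Actn3 was at most 8.13 in SPOP_CKI and 10.6 in Cre_control. Tnni2 and Mylpf of that list were highest in SPOP_CKI 3, at 63.9 and 65.7, against at most 46.1 and 28.6 in Cre_control. Tnnt3 was at most 39.4 in SPOP_CKI and 11.7 in Cre_control. The part of these cell types in the results was not tested.

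Set against the summed ventricular cardiomyocyte markers of the same library, a scale chosen after the data were seen, Pdk4 was 635 ± 487 per 100000 marker reads in SPOP_CKI and 7006 ± 2547 in Cre_control (SD, n = 5 each) without overlap. Pdk2 was 2.14-fold lower and Pdk3 4.96-fold higher on that scale, both without overlap. Pdha1 was 1522 ± 105 in SPOP_CKI and 1750.3 ± 243 in Cre_control, where the groups overlapped, as they did for the other 6 genes. The ratio of the SPOP_CKI to the Cre_control mean was above 1 on that scale for Pdk1 (1.35), Pdhb (1.24) and Dlat (1.14), which were below 1 in scaled reads, and it was 1.61 for Pdp1. The marker sum holds genes that themselves passed the threshold in opposite directions. Mean scaled reads of Myh6 were 97162 in SPOP_CKI and 249198 in Cre_control, and those of Actc1 156876 in SPOP_CKI and 80820 in Cre_control. All ratios on that scale depend on such markers too.

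In the authors' deposited table, the log2 fold changes were −4.10 for Pdk4, −1.51 for Pdk2, 1.69 for Pdk3, −1.28 for Pdp2 and −0.67 for Pdha1. They are from the same libraries and are given for comparison of scale.

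The genes whose pattern over the 10 libraries lay nearest to that of Pdk4, by root mean square distance of centred log2 values among 9844 protein-coding genes, were Ucp3 (0.64), Scn4b (0.92) and Acot1 (0.96), where the median gene was at 2.28. Ucp3 encodes a mitochondrial uncoupling protein, Scn4b a sodium channel beta subunit and Acot1 an acyl-CoA thioesterase. Nearest to Pdk2 were Acadvl (0.18), the enzyme that opens the oxidation of very long fatty acids, Epb41 (0.21) and Kif26a (0.22), with a median of 1.03. Nearest to Pdk1 were AW554918 (0.11), Dis3l (0.11) and Gzf1 (0.11), with a median of 0.54. The distances reflect the group difference and the library differences together.

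Around the complex, 6 of 16 genes of pyruvate handling were lower and 2 higher (limma, adjusted p under 0.05, list median −0.41, beside −0.11 for all tested genes). Of all tested genes, 12.3% were lower and 10.0% higher. This list and those below were chosen with earlier results of these data known. Their counts and adjusted p-values are therefore a description and no independent support. The pyruvate handling list includes Dld and Pdpr, given above, and Pdpr is among the 6 lower. Gpt, a cytosolic alanine aminotransferase, fell by 2.29 on the log2 scale, Pcx, the carboxylase that feeds pyruvate into oxaloacetate, fell by 1.53, and the mitochondrial malic enzyme gene Me3 fell by 1.35 (limma, adjusted p between 0.000561 and 0.0126). Slc16a1, the lactate and pyruvate transporter, rose by 1.17 (limma adjusted p = 0.0376), and Me2, a malic enzyme gene, by 0.75 (limma adjusted p = 0.0115). The mitochondrial pyruvate carrier genes Mpc1, at 1034 ± 457 in SPOP_CKI and 1125 ± 226 in Cre_control, and Mpc2, at 3349 ± 2019 in SPOP_CKI and 4265 ± 788 in Cre_control, did not pass (SD, n = 5 each, adjusted p = 0.601 and 0.282 with limma). Mpc1, Mpc2 and Me2 were picked after their values were seen. Neither Slc16a1 nor Me2 passed after GC centring, where 0 genes of the list were higher. Leaving out Cre_control 1, 2, 3 or 4, SPOP_CKI 2 or SPOP_CKI 4 left 3 genes lower. Leaving out Cre_control 1, 2, 3 or 4, SPOP_CKI 1 or SPOP_CKI 5 left 1 higher.

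Lipoic acid is the swinging arm of E2 and of the sister complexes for 2-oxoglutarate and branched-chain keto acids. The list of 14 tested genes covers its synthesis, those complexes, and the related genes Sirt4, Bckdk, Ppm1k, Dhtkd1 and Gcsh. Of the 14 genes, 8 were lower and 0 higher (limma, adjusted p under 0.05, list median −0.93). Sirt4, Bckdk and Dhtkd1 are among the 8 lower. Of all tested genes, 12.3% were lower and 10.0% higher. Bckdha and Bckdhb, the E1 genes of the branched-chain complex, had log2 fold changes of −2.21 and −1.43, Dhtkd1, an E1 of 2-oxoadipate breakdown, fell by 1.70, and Mcat, of the mitochondrial fatty acid synthesis that supplies lipoate, fell by 1.38 (limma, adjusted p between 0.000258 and 0.0235). The 2-oxoglutarate complex genes Ogdh (log2 fold change −0.34, limma adjusted p = 0.257) and Dlst (−0.48, limma adjusted p = 0.104), named after their values were seen, did not pass. The number lower was 5 without Cre_control 1 or Cre_control 4.

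Of 20 transcription factors and coactivators known to act on Pdk4, 7 were lower and 0 higher (limma, adjusted p under 0.05, list median −0.51). The shares over all tested genes were 12.3% lower and 10.0% higher. Klf15 (−2.17), Foxo3 (−1.44), Rxra (−1.23) and Pparg (−1.19) had the largest log2 fold changes among them (limma, adjusted p between 0.000525 and 0.0235). Ppara, the PPAR isoform best known in heart, stood at 353 ± 233 in SPOP_CKI and 338 ± 78.8 in Cre_control (log2 fold change −0.15), and Foxo1 at 705 ± 185 in SPOP_CKI and 616 ± 139 in Cre_control (SD, n = 5 each). Neither passed (limma, adjusted p = 0.799 and 0.540), and both were picked after their values were seen. The list counts 1 higher without SPOP_CKI 2.

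Genes of fatty acid use that PPAR factors drive were lower in 23 of 24 tested and higher in 0 (limma, adjusted p under 0.05, list median −1.66). Over all tested genes the shares were 12.3% lower and 10.0% higher. This list too was chosen with earlier results of these data known. The largest log2 fold changes among those called were of the thioesterase gene Acot1 (−4.61), the peroxisomal oxidation enzyme gene Ehhadh (−4.48), Ucp3 (−4.36) and Angptl4 (−3.98), an inhibitor of lipoprotein lipase (limma, adjusted p between 8.68e-05 and 0.0130). Ehhadh was at 0 to 104 scaled reads in SPOP_CKI, so its log2 value depends on the added 1 (SE 1.05), and its means differed 11.9-fold. Cpt1b, counted as lower, was near the floor, at 0 to 15.7 in SPOP_CKI and 18.2 to 89.4 in Cre_control. Acadl did not pass. Of 18 tested genes of glucose uptake and glycolysis, 3 were higher and 4 lower (list median −0.12), beside 10.0% and 12.3% of all tested genes. Aldoa of this list had no single entry and was left out. Gapdh was at 46.2 to 141 scaled reads in SPOP_CKI and 66.4 to 2265 in Cre_control, with the highest value in Cre_control 3. The reason for these Gapdh values was not tested. Pfkp, a phosphofructokinase isoform, rose by 1.15, whereas Pfkfb1, a fructose-2,6-bisphosphate enzyme, fell by 4.64, Slc2a4, the insulin-responsive glucose transporter, by 1.66, and Pgam2, a muscle phosphoglycerate mutase, by 1.09 (limma, adjusted p between 0.00128 and 0.0257). Pfkfb1 was near the floor in SPOP_CKI, at 0 to 20.1 scaled reads, against 171 to 229 in Cre_control, so its log2 value also depends on the added 1. Without SPOP_CKI 3, 6 glycolytic genes were higher.

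Among 13 tested hypoxia targets other than Pdk1, 2 were higher and 4 lower (limma, adjusted p under 0.05, list median −0.04). Of all tested genes, 10.0% were higher and 12.3% lower. P4ha1, a collagen prolyl hydroxylase subunit, rose by 1.83 and Egln3, an oxygen sensor, by 1.60 on the log2 scale. Ddit4, an inhibitor of mTORC1 signalling, fell by 2.91 and Bnip3, a mitophagy receptor, by 1.10 (limma, adjusted p between 0.00122 and 0.0107 for the 4 genes).

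**Figure D5:**
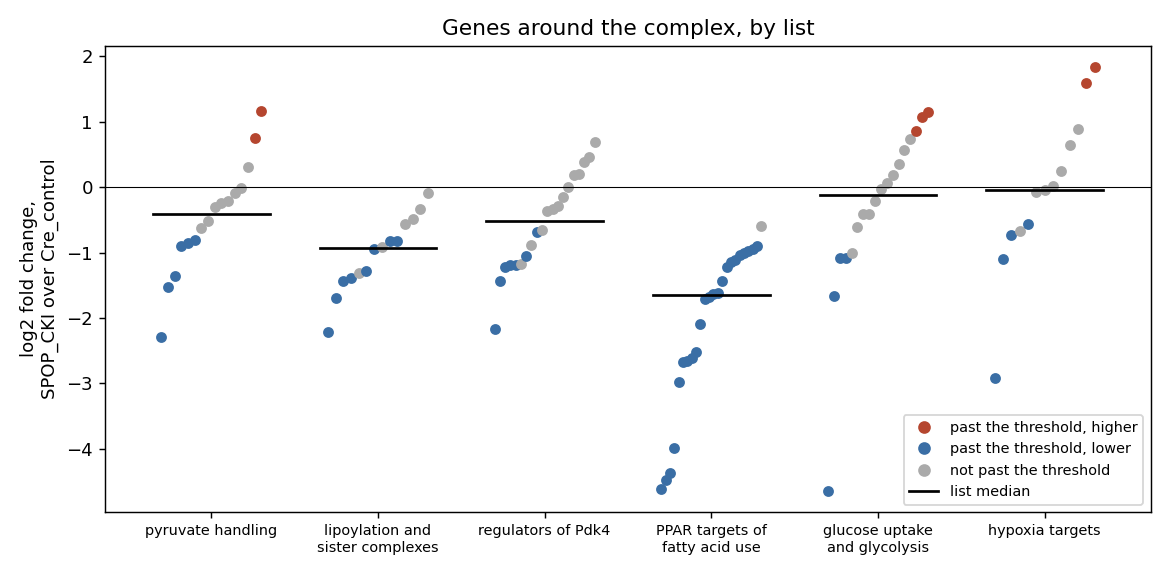
Log2 fold change of SPOP_CKI over Cre_control (y axis) for each tested gene of the 6 lists around the complex (x axis), with red and blue for genes past the threshold and a black line at the list median. The PPAR targets lie below 0 without exception, with a median of −1.66, while glycolysis and hypoxia targets lie on both sides of 0.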

How the data were processed

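RNA sequencing of heart tissue gave a table of 24888 genes in 10 libraries. Its values are a signal, gene reads divided by size factors, which the authors deposited as normalized; featureCounts 1.5.0-p3, DESeq2 1.20.0 and mm10 stand in the submitters' processing notes, while the sources used here name no aligner, annotation release or strand setting. The authors also deposited log2 fold changes for their own comparison, and p-values with adjusted values, of which 7456 are exactly 1. Whole reads were recovered for 100% of values (tolerance 0.001). Replicates differed beyond sampling noise (chi-square per degree of freedom at least 13.8).

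Genes with at least 10 in at least 5 libraries were tested on log2(value + 1) with limma 3.58.1 (trend and robust, R 4.3.3), Benjamini-Hochberg adjusted over 14212 genes at 0.05. Replicate numbers were not used as a block. edgeR 4.0.16 and DESeq2 1.42.0 on recovered reads, other scalings, filters and pseudocounts, array weights, GC centring, a replicate block and left-out libraries were alternatives (22 in all). The fit was also run on simulated reads with the same spread per gene in both groups. Most genes here were more spread in SPOP_CKI, so that run is a check of the code only. Levels between genes used the deposited lengths.

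The members and lists were chosen with earlier results of these data known. Named genes are the members, Spop, Dld, Pdpr, up to 4 called genes per pathway list by size of change, and the 3 protein-coding genes (mean at least 100) nearest in pattern to Pdk4, Pdk2 and Pdk1. Mpc1, Mpc2, Me2, Ppara, Foxo1, Acadl, Cpt1b, Gapdh, Ogdh, Dlst, Sirt4, Bckdk, Ppm1k, Gcsh and the marker genes named are outside that rule and were picked after their values were seen. Depth was 15316293 to 17114869 reads per library. Promoters are RefSeq windows (GRCm38.p6).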

Additional observations from a re-analysis of the deposited data

Results flagged for a closer look

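In 3 of 32 groups of 5 libraries examined, a single library lay far from the others by Dixon's gap ratio, where chance gives about 1 in 20. Pdp2 was at 481 scaled reads in SPOP_CKI 5 and at 80.1 to 148 in the other SPOP_CKI libraries. Pdpr, the regulatory subunit of the same phosphatase, was at 1547 in SPOP_CKI 5 and at 539 to 719 in the others. Pdha1 was at 14642 in Cre_control 4 and at 12555 to 12942 in the other controls.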

How the results depend on the processing

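With array weights 2429 genes were higher and 2891 lower, and leaving out single libraries gave 889 to 1944 higher and 1063 to 2456 lower. Pdp1 was 0.06 and turned negative with array weights (−0.26), after GC centring (−0.36), without the libraries with Xist reads (−0.23) and on leaving out single libraries, over which it ranged from −0.15 to 0.31. Pyruvate handling had 0 genes higher after GC centring, and 1 to 2 higher and 3 to 8 lower over left-out libraries. Lipoylation and sister complexes had 5 to 9 lower over left-out libraries. Pdk4 regulators had 1 higher with DESeq2 and with the replicate block, 0 to 1 over left-out libraries, and 12 lower with array weights. Glycolysis had 5 higher with DESeq2 and after GC centring, 6 with array weights and without the libraries with Xist reads, 2 to 6 over left-out libraries, and 2 lower after GC centring. With longest transcript lengths Pdk4 was 76.8% of kinase reads in Cre_control, and Pdk1 was 24.1% in SPOP_CKI and 4.10% in Cre_control. Without division by length Pdk1 was 37.7% in SPOP_CKI and 6.43% in Cre_control, and Pdk3 2.15% in SPOP_CKI. The cause was not tested for any of these.

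With the replicate block 1310 genes were higher and 1636 lower. Same-numbered libraries deviated together with correlations of 0.111, 0.104, 0.159, 0.081 and 0.026. As 2 of them are not above 0.1, the numbers were not taken as pairs, and libraries 1 and 3 alone correlated best with their own number.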
